A study of Homo sapiens with 8 samples.

Results

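Translation initiation factors and the kinases that act on eIF2 were taken from the deposited expression table by gene symbol, as every symbol that begins with EIF followed by a digit from 1 to 6. This gave 51 of the 13036 listed genes, after 2 divergent transcripts of the same stem (EIF3J-DT and EIF2AK3-DT) were left out. All 51 are protein-coding in RefSeq. They comprised 4 eIF2 kinases, 3 eIF2 subunits, 5 eIF2B subunits, EIF2A and EIF2D, 4 genes of the eIF1 group, 5 of the eIF5 group, 14 eIF3 subunits, 3 cap binders of the eIF4E family, 3 eIF4E-binding proteins, 3 eIF4G scaffolds, 2 eIF4A helicases, EIF4B and EIF4H, and EIF6. EIF4A1 and EIF2S3B were not analysed here.

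The cells were LN229-TAZ(4SA), a human glioblastoma line whose name carries a form of the Hippo pathway co-activator TAZ, and every group shared it. The treated groups received AF at 1 µM in medium lacking glucose and were collected at 7 h or 1 h. They were set against the same line in regular culture with no AF, collected at 7 h or 1 h, with 2 libraries in each of the 4 groups. AF is named only by that abbreviation, the series title concerns thioredoxin reductase 1, and because AF came together with glucose loss, their effects cannot be told apart. A and B name the libraries within a group, in no order. No label places them in separate cultures, so p-values measure their spread alone, which may be technical.

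Each library held between 27731776 and 45811965 reads in the listed genes, and a level of 3 reads stood between 0.0626 and 0.129 CPM (read counts scaled to library size). Within each pair, the chi-square per degree of freedom was 2.79 to 3.62, above what counting error gives. Levels are CPM on the authors' scale, which compares libraries for 1 gene but not genes with each other, because no gene length enters it. Fold changes are log2 values, treated minus regular, with the standard error (SE) of a limma fit over all 13028 genes that reached 1 CPM in at least 2 libraries. Unless a comparison over time is named, rose and fell mean higher and lower in treated cells than in regular culture at the same time. A gene passed at a limma adjusted p under 0.05, and all 51 genes were tested. All 7 glioblastoma markers sought were in the table, with GFAP at only 0.495 to 1.14 CPM on average. At 7 h 2 of them were higher in treated cells (OLIG2 at 1.24 and GFAP at 1.12 log2 units) and CD44 did not pass (-0.05). The 4 lower ones were SOX2 (-2.58), NES and EGFR (-0.42 each) and VIM (-0.09). Regular culture itself moved, with SOX2 at 125 CPM on average at 7 h and 19.7 CPM at 1 h, and OLIG2 at 6.83 and 15.7 CPM. In treated cells SOX2 averaged 20.9 CPM at 7 h and 40.7 CPM at 1 h, and OLIG2 16.2 and 16.5 CPM. SOX2 was called higher in treated cells at 1 h (1.05). Of 7 markers of other cell types, CD68 alone was in the table, and at 7 h it averaged 21.6 CPM in treated cells and 13.7 CPM in regular culture (log2 fold change 0.65; limma adjusted p = 1.17e-07). The part of these markers in the results below was not tested. In bulk RNA, a changed number of cells of a type and a changed amount of RNA per cell cannot be told apart.

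Translation of most messenger RNAs begins when eIF2 delivers the initiator tRNA to the small ribosomal subunit, together with eIF1, eIF1A, eIF3 and eIF5, while the cap-binding complex of eIF4E, eIF4G and the helicase eIF4A brings in the message. Stress slows this at a pair of points. The kinases encoded by EIF2AK1 to EIF2AK4 phosphorylate eIF2 on its alpha subunit, which turns eIF2 into an inhibitor of its own exchange factor eIF2B, and under-phosphorylated 4E-binding proteins hold eIF4E away from eIF4G.

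Promoter sequence is shown first for the genes with the largest rise and the largest fall among the members at 7 h, EIF5 and EIF4EBP2, and for EIF3F, the one member with a pair of matches to the heat shock letters. RefSeq promoters (GRCh38.p14, 250 bases before to 50 after each gene's start) matched 42 of the 51 genes, out of 27305 promoters. In each line the capitals mark the match, and the window is the 160 bases before the start, on the plus strand.

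EIF5, chr14:103334077-103334236: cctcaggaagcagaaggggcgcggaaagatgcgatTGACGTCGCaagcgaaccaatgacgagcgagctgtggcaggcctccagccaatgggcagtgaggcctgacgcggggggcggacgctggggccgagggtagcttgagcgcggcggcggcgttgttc

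EIF4EBP2, chr10:70403985-70404144: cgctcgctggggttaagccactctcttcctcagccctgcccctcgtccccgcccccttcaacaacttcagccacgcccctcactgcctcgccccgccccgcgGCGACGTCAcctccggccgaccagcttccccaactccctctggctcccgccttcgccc

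EIF3F, chr11:7987177-7987336: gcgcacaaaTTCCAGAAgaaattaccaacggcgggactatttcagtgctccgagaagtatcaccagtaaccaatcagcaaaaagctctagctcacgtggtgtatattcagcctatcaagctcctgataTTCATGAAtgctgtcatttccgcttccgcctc

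The capitals in EIF5 and EIF4EBP2 match TGACNNNGC, letters of the antioxidant response element, read on both strands. These letters lay in 10 of the 42 member promoters (23.8%) and in 13.6% of all promoters. The heat shock letters TTCNNGAA lay in 2 member promoters, EIF3F and EIF5B (4.76%, against 7.84% of all promoters). The ATF4-type letters TGATGNAA and the CRE letters TGACGTCA lay in 0 of the 42, against 3.67% and 1.98% of all promoters. TGACNNNGC and TGACGTCA share the letters TGAC, and the matches shown share more. TGACGTCGC in EIF5 begins with TGACGTC, all of the CRE letters but the last, and EIF4EBP2 holds the reverse complement of TGACGTCGC. No full matches to different motifs overlap in the windows shown. A match describes these letters in this window and shows no binding.

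Among the initiation genes at 7 h, 28 of 51 were higher in treated cells and 17 were lower, and 6 did not pass. Over all tested genes 40.5% were higher and 41.1% were lower by the same rule, so the members' share of higher calls was 54.9% and their share of lower calls 33.3%. Their median log2 fold change was 0.20, against -0.01 over all genes. At least 2-fold changes were reached by 8 members, of which EIF5, EIF2AK3, EIF4EBP1, EIF2S2, EIF1 and EIF3E were higher and EIF4EBP2 and EIF2AK4 were lower. That is 11.8% of members higher and 3.92% lower by at least 2-fold, against 10.6% and 11.5% of all genes. The counts of members past the test depended on how libraries were put on a common scale. With each library scaled to the total of its listed reads, 16 members were higher and 26 lower. The median of all genes then stood at -0.32 log2 units. Because this scaling moves all genes of a library nearly alike, the count of members above that median could hardly change. It was 32 of 51 on both scales. Quantile normalization gave 23 higher and 21 lower, with 27 members above that median. Over all genes that passed, the share that was higher was 49.7% as deposited and 29.3% on the listed total. The 51 genes took 1.05% of listed reads in both treated libraries and 1.09% in both regular libraries at 7 h, although their summed level on the authors' scale was 12570 and 12400 CPM in treated cells and 10400 and 10320 CPM in regular culture. The 8 genes with 2-fold changes kept their direction and their call after quantile normalization, where EIF5 was at 1.28 and EIF4EBP2 at -1.53. On the listed total these genes were at 1.39 and -1.86. Its nearly uniform shift was too small to end changes of this size, so that scale could not test these calls.

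**Figure D1:**
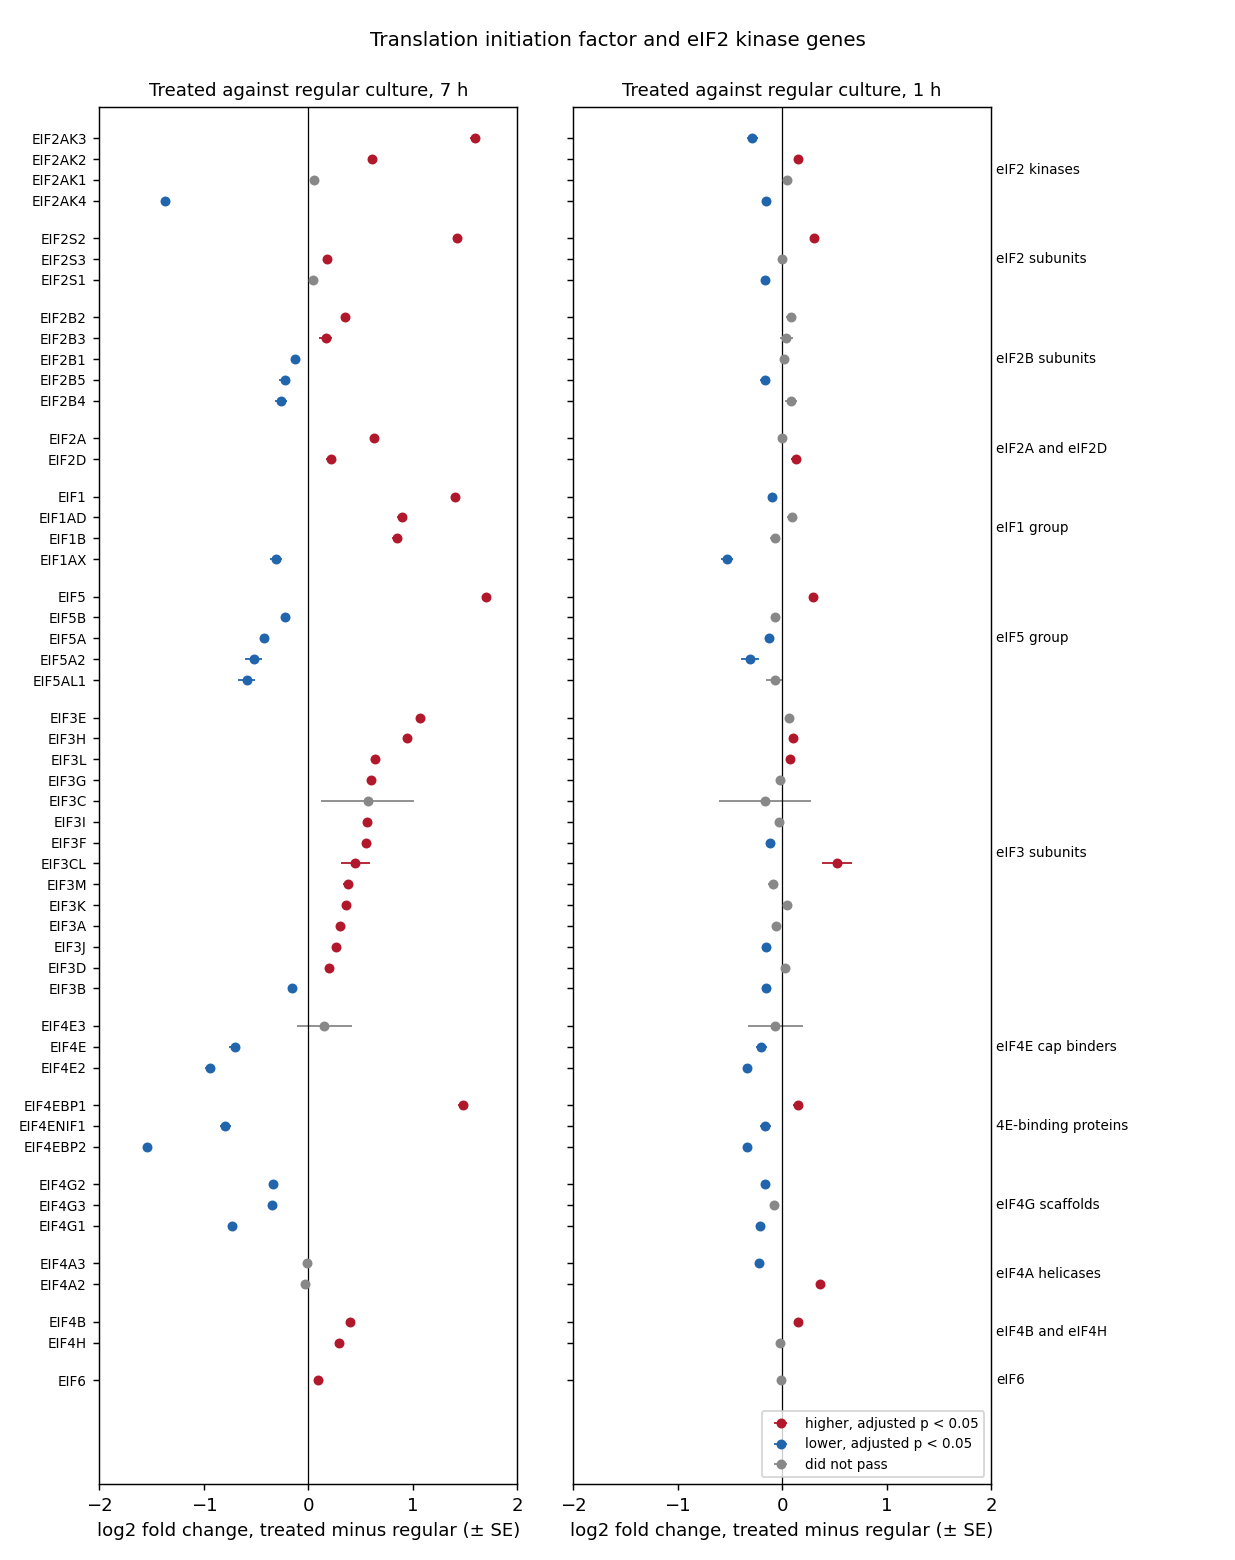
Log2 fold change of each of the 51 genes, treated minus regular culture, at 7 h (left panel) and 1 h (right panel), by factor complex. Points are limma estimates and bars are ± SE; red genes were higher and blue genes lower at an adjusted p under 0.05, and grey genes did not pass. At 7 h the values run between -1.55 for EIF4EBP2 and 1.70 for EIF5, and at 1 h between -0.53 for EIF1AX and 0.52 for EIF3CL.

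At 1 h the changes were smaller, and no member reached a 2-fold change, which 1.1% of all genes did upward and 2.03% downward. Of the 51 genes, 10 were higher (19.6%) and 18 lower (35.3%) in treated cells, against 17.7% and 20.7% of all genes. The median of the members was -0.06 and that of all genes 0.01. Under quantile normalization the members' counts were 18 higher and 11 lower, and on the listed total 17 and 10. Over all genes that passed at 1 h, the higher share was 46.1% as deposited, 57.8% after quantile normalization and 68.3% on the listed total. Without treated library B or regular library A of the 1 h groups, 4 members in place of 10 passed as higher. Of the 1 h calls, 7 were lost under quantile normalization (EIF1, EIF2AK4, EIF2B5, EIF2S1, EIF3F, EIF3J and EIF5A) and 8 on the listed total (the same without EIF2AK4, and EIF4E and EIF4ENIF1).

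The 4 eIF2 kinase genes went separate ways at 7 h (gene positions here and later are from RefSeq, GRCh38.p14). PERK (EIF2AK3, chr2:88556741-88628145), the kinase of the endoplasmic reticulum, rose 3.03-fold, and PKR (EIF2AK2, chr2:37099210-37156980), the kinase activated by double-stranded RNA, rose 1.53-fold. GCN2 (EIF2AK4, chr15:39934115-40035591), the kinase that senses uncharged tRNA, fell to 0.387 of its regular level. HRI (EIF2AK1, chr7:6022247-6059175), known for sensing heme shortage and mitochondrial stress, did not pass the test. EIF2AK3 and EIF2AK4 kept these directions under quantile normalization and on the listed total, and so did EIF2AK2, whereas EIF2AK1 was called lower there (-0.11 and -0.26).

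EIF2AK3 had 60.3 and 60.4 CPM in the treated libraries at 7 h, against 20.1 and 19.7 CPM in regular culture at 7 h. At 1 h the levels were 26.7 and 27.2 CPM in treated cells, against 33.2 and 32.6 CPM in regular culture. The treated libraries were the highest of all at 7 h but lay below regular culture at 1 h, with no overlap at either time. The log2 fold change was 1.60 (SE 0.05; limma adjusted p = 2.33e-16) at 7 h and -0.28 (SE 0.05; limma adjusted p = 1.44e-04) at 1 h. In regular culture the gene was lower at 7 h than at 1 h, by a log2 difference of -0.72 (limma adjusted p = 2.86e-10).

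EIF2AK4 had 93.2 and 89.7 CPM in treated cells at 7 h, against 239 and 234 CPM in regular culture. At 1 h its levels were 174 and 175 CPM in treated cells and 191 and 197 CPM in regular culture. Treated libraries were lower at both times without overlap. The log2 fold change was -1.37 (SE 0.03; limma adjusted p = 6.18e-18) at 7 h and -0.15 (limma adjusted p = 0.0014) at 1 h, where it was -0.05 and not past the test under quantile normalization. With time in regular culture the gene gained 0.28 log2 units, while in treated cells it was lower at 7 h than at 1 h by -0.93.

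EIF2AK2 stood at 92.5 and 97.7 CPM in treated cells and 61.7 and 62.7 CPM in regular culture at 7 h, and at 65.1 and 66.6 CPM in treated cells against 58.3 and 60.1 CPM in regular culture at 1 h. Both treated libraries were above both regular libraries at each time. Its log2 fold change was 0.61 (SE 0.04; limma adjusted p = 5.05e-11) at 7 h and 0.15 (limma adjusted p = 0.00652) at 1 h, and the 1 h call was lost when a single library was left out. EIF2AK1 stood at 199 and 201 CPM in treated cells against 195 and 190.0 CPM in regular culture at 7 h, with a log2 difference of 0.06 (SE 0.04; limma adjusted p = 0.142). The 1 h levels were 200 and 210 CPM in treated cells and 194 and 201 CPM in regular culture, where the libraries overlapped and the difference was 0.05 (limma adjusted p = 0.284).

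**Figure D2:**
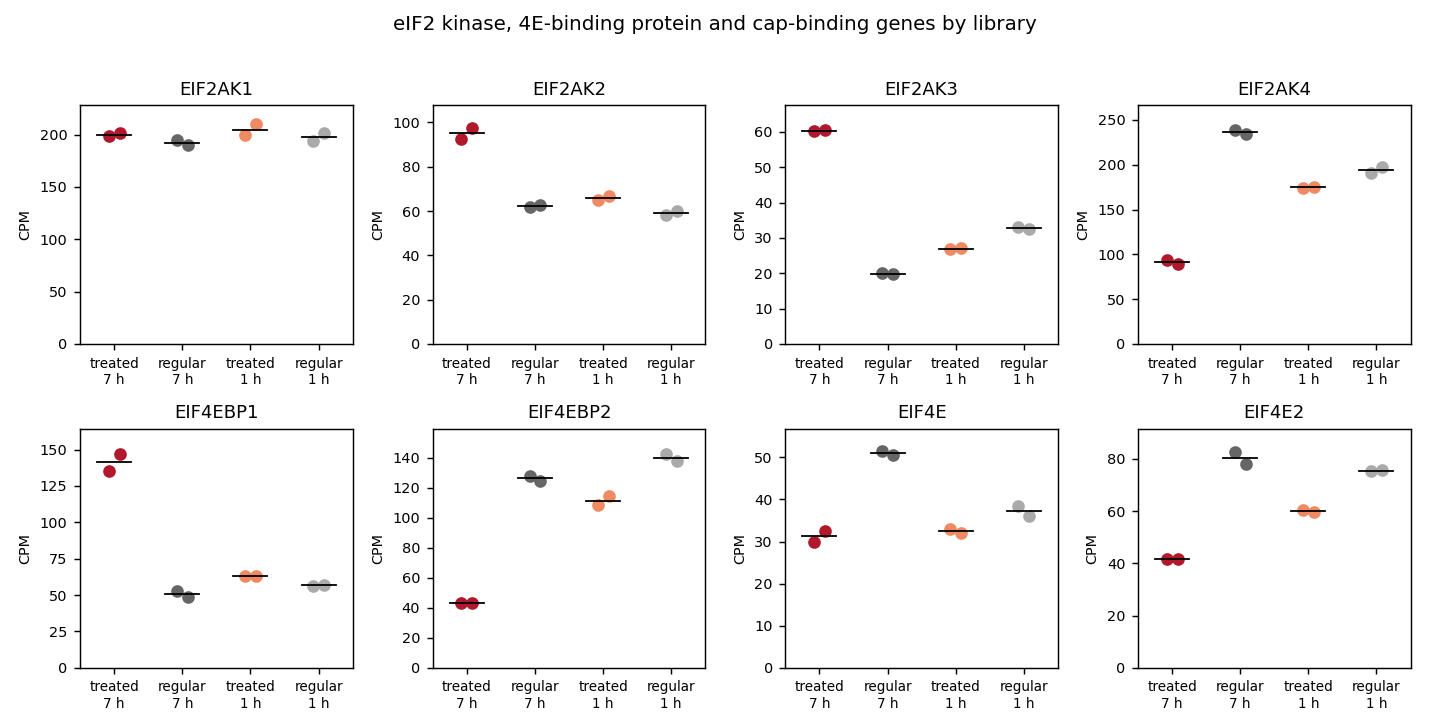
Level in CPM of the 4 eIF2 kinase genes (upper row) and of EIF4EBP1, EIF4EBP2, EIF4E and EIF4E2 (lower row) in each library. Points are the 2 libraries of a group, lines their mean, and each axis starts at 0. EIF2AK3 and EIF4EBP1 were highest in treated cells at 7 h, with 60.3 and 60.4 CPM and with 136 and 147 CPM, and EIF2AK4 and EIF4EBP2 were lowest there.

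The substrate of these kinases, eIF2, is a trimer, and its 3 genes differed. EIF2S2 (chr20:34088309-34112243), which encodes the beta subunit that contacts eIF5, had 612 and 618 CPM in treated cells and 228 and 229.8 CPM in regular culture at 7 h. After 1 h the levels were 274 and 276 CPM in treated cells against 220.3 and 222 CPM in regular culture. Treated libraries were higher at both times. The log2 fold changes were 1.43 (SE 0.03; limma adjusted p = 3.32e-19) and 0.31 (SE 0.03; limma adjusted p = 5.53e-08), equal to 2.69-fold and 1.24-fold.

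EIF2S1, the alpha subunit that carries the phosphorylated serine, had 141 and 135 CPM in treated cells and 131 and 136 CPM in regular culture at 7 h. These libraries overlapped, and the log2 difference of 0.04 did not pass (SE 0.04; limma adjusted p = 0.286), although on the listed total EIF2S1 was called lower (-0.27). At 1 h its 98.3 and 104 CPM in treated cells lay below the 113 and 113 CPM in regular culture, a log2 fold change of -0.16 (limma adjusted p = 0.00222) that did not pass under quantile normalization (-0.08) or on the listed total (-0.09). EIF2S3, the gamma subunit that binds GTP and the initiator tRNA, had 260 and 268 CPM in treated cells against 229 and 236 CPM in regular culture at 7 h. Its log2 fold change of 0.18 (limma adjusted p = 4.88e-05) passed as deposited but was -0.02 under quantile normalization and -0.13 on the listed total. The summed level of the 3 subunit genes was 1013 and 1022 CPM in treated cells and 589 and 602 CPM in regular culture at 7 h.

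The exchange factor eIF2B is built from 5 subunits, which at 7 h split into 2 that rose and 3 that fell, all by less than 0.4 log2 units. EIF2B2, the beta subunit, had 74.5 and 70.5 CPM in treated cells against 56.2 and 57.1 CPM in regular culture, a log2 fold change of 0.36 (limma adjusted p = 4.79e-07). EIF2B4, the delta subunit, had 34.2 and 32.0 CPM in treated cells against 40.6 and 38.7 CPM in regular culture, a log2 fold change of -0.26 (limma adjusted p = 2.8e-04). Neither pair of groups overlapped. EIF2B5, the catalytic epsilon subunit, fell by 0.23, EIF2B1 (alpha) fell by 0.13 and EIF2B3 (gamma) rose by 0.17. The calls of EIF2B1 and EIF2B3 were lost when a library was left out. On the listed total, 0 of the 5 were higher and 4 were lower at 7 h, with EIF2B3 at -0.15. At 1 h EIF2B5 was the only one of the 5 to pass, at -0.17 (limma adjusted p = 0.0126), again not without each library.

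EIF2A and EIF2D encode proteins able to bring tRNA to the ribosome without eIF2. EIF2A had 140 and 144 CPM in treated cells at 7 h, against 91.0 and 92.3 CPM in regular culture, with a log2 fold change of 0.63 (SE 0.04; limma adjusted p = 7.81e-12). EIF2D had 64.4 and 61.0 CPM in treated cells against 55.4 and 52.6 CPM in regular culture, a log2 fold change of 0.21 that became -0.10 on the listed total. The treated libraries of both genes lay above those of regular culture. At 1 h EIF2A did not pass (0.00; limma adjusted p = 0.952). EIF2D passed as higher at 1 h (0.14; limma adjusted p = 0.0259), with 54.8 and 56.9 CPM in treated cells against 49.5 and 52.0 CPM in regular culture, and this call was lost without single libraries.

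Genes of the factors that select the start codon held several of the largest rises. EIF5 (chr14:103334237-103345025), the GTPase-activating protein of eIF2, had 1169 and 1184 CPM in treated cells at 7 h, against 363 and 359 CPM in regular culture. The 1 h libraries had 493 and 484 CPM in treated cells, against 404 and 391 CPM in regular culture. Treated libraries were above regular ones at both times, and the pair at 7 h stood above the other 6 libraries. The log2 fold change was 1.70 (SE 0.03; limma adjusted p = 2.32e-20), or 3.26-fold, at 7 h and 0.30 (SE 0.03; limma adjusted p = 1.08e-07) at 1 h. It was 1.28 under quantile normalization and 1.39 on the listed total at 7 h.

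EIF1 (chr17:41688885-41692668), the factor that guards against initiation at the wrong codon, had 931 and 905 CPM in treated cells and 351 and 341 CPM in regular culture at 7 h. At 1 h its 457 and 467 CPM in treated cells lay below the 491 and 496 CPM of regular culture. The groups did not overlap at either time, and the direction was opposite at the 2 times. The log2 fold change was 1.41 (SE 0.03; limma adjusted p = 6.05e-19) at 7 h and -0.10 (limma adjusted p = 0.016) at 1 h, where the call was lost without single libraries. In regular culture EIF1 was lower at 7 h than at 1 h by -0.51 (limma adjusted p = 2.2e-11). Its close paralog EIF1B had 61.0 and 58.5 CPM in treated cells against 32.5 and 33.6 CPM in regular culture at 7 h, a log2 fold change of 0.85 (SE 0.05; limma adjusted p = 2.49e-12). EIF1B did not pass at 1 h (-0.07; limma adjusted p = 0.269).

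EIF1AX, which encodes eIF1A, the partner of eIF1 on the small subunit, was the one gene of this group that fell at 7 h. It had 90.8 and 89.0 CPM in treated cells against 109 and 114 CPM in regular culture at 7 h, and 74.9 and 70.0 CPM in treated cells against 113 and 95.9 CPM in regular culture at 1 h. Both times the treated libraries were lower. Its log2 fold change at 1 h, -0.53 (SE 0.06; limma adjusted p = 3.26e-07), was the largest fall of the 51 genes at that time, and at 7 h it was -0.31 (limma adjusted p = 5.31e-05). EIF1AD, a gene whose product shares the eIF1A-like domain, had 86.3 and 81.2 CPM in treated cells and 44.2 and 45.6 CPM in regular culture at 7 h, with a log2 fold change of 0.90. The eIF1 group thus counted 3 higher and 1 lower at 7 h, under the deposited scale, quantile normalization and the listed total.

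In the eIF5 group EIF5 was the only gene that rose at 7 h, and the other 4 fell, also under both other scalings. EIF5B, the GTPase that joins the ribosomal subunits, had 181 and 174 CPM in treated cells and 207 and 209 CPM in regular culture, a log2 fold change of -0.23 (limma adjusted p = 1.58e-05). EIF5A, a factor of elongation and termination that carries the hypusine residue, had 399 and 391 CPM in treated cells against 535 and 526 CPM in regular culture, a log2 fold change of -0.42 (limma adjusted p = 2.59e-10). Its paralog EIF5A2 had 12.2 and 11.8 CPM in treated cells and 16.9 and 17.6 CPM in regular culture, a log2 fold change of -0.52 (limma adjusted p = 1.15e-05). In each of these the treated libraries were below the regular ones. EIF5AL1 was lower by -0.59, with 10.6 and 9.35 CPM in treated cells against 14.7 and 15.3 CPM in regular culture. It is a near-identical copy of EIF5A, so how reads were split between the pair is uncertain. At 1 h EIF5A (-0.12) and EIF5A2 (-0.30) passed as lower, and both lost the call without single libraries. In regular culture EIF5A and EIF5B were higher at 7 h than at 1 h, by 0.40 and 0.29. In treated cells they were also higher at 7 h than at 1 h, by 0.10 and 0.13. EIF5A2 was lower over time in treated cells (-0.31), and EIF5AL1 did not pass (-0.135).

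**Figure D3:**
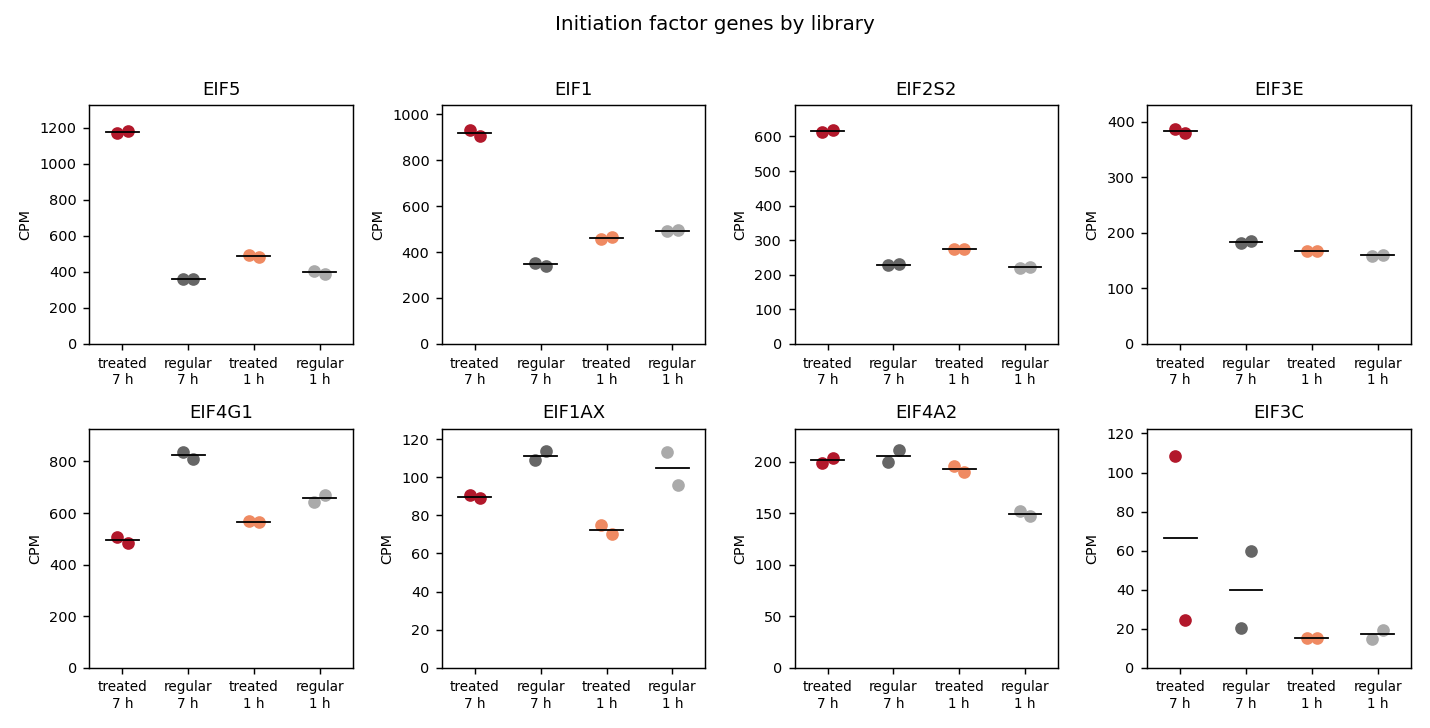
Level in CPM of EIF5, EIF1, EIF2S2 and EIF3E (upper row) and of EIF4G1, EIF1AX, EIF4A2 and EIF3C (lower row) in each library. Points are the 2 libraries of a group, lines their mean, and each axis starts at 0. The 2 treated libraries at 7 h stand apart above the rest in the upper row, at 1169 and 1184 CPM for EIF5, whereas EIF3C differs more within a pair (108 and 24.5 CPM) than between groups.

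The large scaffold eIF3 binds the small subunit and recruits the message. Of its 14 genes, 12 were higher (85.7%), 1 was lower (7.14%) and 1 did not pass at 7 h, against 40.5% and 41.1% of all genes. Their median log2 fold change was 0.50, against -0.01 over all genes. Under quantile normalization 10 were higher and 1 lower. On the listed total 6 were higher and 2 lower, where their median was 0.19 and that of all genes -0.32. The summed level of the 14 genes was 3835 and 3731 CPM in treated cells and 2770 and 2800 CPM in regular culture at 7 h. EIF3E, which lies on the outer arm of the complex, had the largest rise, with 386 and 380 CPM in treated cells against 181 and 185 CPM in regular culture. Its treated libraries stood above the other 6, and the log2 fold change was 1.06 (SE 0.03; limma adjusted p = 9.57e-17). EIF3H, its neighbour in the complex, had 327 and 330.3 CPM in treated cells and 172 and 169 CPM in regular culture, a log2 fold change of 0.94 (SE 0.03; limma adjusted p = 9.17e-16).

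The next rises among eIF3 genes were EIF3L (0.63), EIF3G (0.60), EIF3I (0.56) and EIF3F (0.55), followed by EIF3M (0.38), EIF3K (0.36), EIF3A (0.30), EIF3J (0.27) and EIF3D (0.20). On the listed total EIF3A, EIF3D and EIF3J turned to -0.01, -0.12 and -0.05, and EIF3D was at -0.03 under quantile normalization. EIF3F, whose promoter is shown above, had 150 and 157 CPM in treated cells and 106 and 104 CPM in regular culture. EIF3B, a core subunit with an RNA recognition motif, was the one that fell, with 470 and 453 CPM in treated cells against 517 and 515 CPM in regular culture (log2 fold change -0.16; limma adjusted p = 5.98e-05). Within the complex the log2 fold changes thus ran between -0.16 and 1.06.

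EIF3C and EIF3CL (chr16:28688558-28735730 and chr16:28379581-28426418) are near-identical copies, and reads shared between them may have been split unevenly. EIF3C had 108 and 24.5 CPM in treated cells and 20.3 and 59.5 CPM in regular culture at 7 h. The libraries of each pair lay further apart than the groups, and the log2 difference of 0.57 did not pass (SE 0.44; limma adjusted p = 0.241). It passed as higher without treated library B (1.64) or without regular library B (1.34) of the 7 h groups, and had the opposite sign without treated library A (-0.50) or regular library A (-0.21). EIF3CL had 8.65 and 9.22 CPM in treated cells against 6.28 and 6.77 CPM in regular culture at 7 h, and 6.99 and 10.7 CPM in treated cells against 5.71 and 6.28 CPM in regular culture at 1 h. Its log2 fold changes of 0.45 (SE 0.14; limma adjusted p = 0.00655) and 0.52 (SE 0.14; limma adjusted p = 0.00603) both passed, with the same doubt about shared reads, and the 1 h call was lost without a library. Together EIF3C and EIF3CL summed to 117 and 33.7 CPM in treated cells and 26.6 and 66.3 CPM in regular culture at 7 h. This sum also lay far apart within each pair of libraries, and the source of that spread was not tested.

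At 1 h, 3 eIF3 genes were higher (EIF3CL, EIF3H at 0.11 and EIF3L at 0.08), 3 were lower (EIF3B and EIF3J at -0.15 each, EIF3F at -0.12) and 8 did not pass. These shares of 21.4% each stood against 17.7% higher and 20.7% lower over all genes. The calls of EIF3CL, EIF3H, EIF3L and EIF3F were each lost when some library was left out. Under either other scaling 6 were higher and 1 was lower. The summed level was 2366 and 2425 CPM in treated cells and 2424 and 2447 CPM in regular culture, where the libraries overlapped.

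Of the 8 genes for cap binders, scaffolds and helicases, 5 were lower at 7 h and 3 did not pass. Over all tested genes 41.1% were lower and 40.5% higher. Both helicase genes were also called lower under quantile normalization and on the listed total, where the other calls were kept. EIF4E, the cap-binding protein itself, had 30.0 and 32.5 CPM in treated cells against 51.4 and 50.5 CPM in regular culture at 7 h. The 1 h levels were 32.9 and 32.1 CPM in treated cells, against 38.5 and 36.2 CPM in regular culture. Treated libraries were lower at both times. The log2 fold change was -0.70 (SE 0.05; limma adjusted p = 2.57e-10) at 7 h and -0.20 (limma adjusted p = 0.00578) at 1 h, and the 1 h call was lost without single libraries.

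EIF4E2, a cap-binding homologue linked to repression of translation, had 41.7 and 41.6 CPM in treated cells and 82.5 and 78.1 CPM in regular culture at 7 h. Those at 1 h were 60.5 and 59.6 CPM in treated cells against 75.3 and 75.8 CPM in regular culture. Its log2 fold changes were -0.95 (SE 0.04; limma adjusted p = 5.36e-14) and -0.33 (limma adjusted p = 2.77e-06), again with treated libraries below regular ones. EIF4E3 was at a low level, with 1.03 and 1.79 CPM in treated cells and 1.27 and 1.17 CPM in regular culture at 7 h, and did not pass (0.15; SE 0.26; limma adjusted p = 0.603). As few as 24 reads covered it in a library, so a difference of this size was not detectable at this depth. EIF4E and EIF4E2 kept their direction and call at 7 h under both other scalings.

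The 4E-binding proteins moved in opposite directions between relatives. EIF4EBP1 (4E-BP1) had 136 and 147 CPM in treated cells and 52.8 and 48.4 CPM in regular culture at 7 h, a log2 fold change of 1.48 (SE 0.05; limma adjusted p = 3.28e-16), or 2.79-fold. EIF4EBP2 (4E-BP2) had 43.2 and 43.2 CPM in treated cells against 128 and 125 CPM in regular culture, a log2 fold change of -1.55 (SE 0.04; limma adjusted p = 7.19e-18), or 0.342 of the regular level. The treated libraries of one gene were above all others and those of the other gene below all others.

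At 1 h EIF4EBP1 had 62.9 and 63.0 CPM in treated cells and 56.2 and 57.3 CPM in regular culture (log2 fold change 0.15; limma adjusted p = 0.0171), a call lost without single libraries. EIF4EBP2 had 108 and 114 CPM in treated cells and 142 and 138 CPM in regular culture (log2 fold change -0.33; limma adjusted p = 9.97e-07). EIF4ENIF1, which encodes 4E-T, the protein that carries eIF4E into the nucleus and to processing bodies, had 24.8 and 24.8 CPM in treated cells against 42.9 and 43.1 CPM in regular culture at 7 h. Its log2 fold change was -0.79 (SE 0.05; limma adjusted p = 4.72e-11), and its treated libraries lay below the regular ones. At 7 h each of the 3 genes had the same direction under quantile normalization and on the listed total.

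All 3 eIF4G scaffold genes fell at 7 h, on the deposited scale and on both others. EIF4G1, the main bridge between eIF4E, eIF4A and eIF3, had 508 and 485 CPM in treated cells and 838 and 810 CPM in regular culture, a log2 fold change of -0.73 (SE 0.03; limma adjusted p = 6.18e-14). At 1 h it had 569 and 564 CPM in treated cells against 643 and 671 CPM in regular culture (log2 fold change -0.21; limma adjusted p = 2.79e-05). EIF4G2 (DAP5), which lacks the eIF4E-binding part, had 1326 and 1308 CPM in treated cells against 1703 and 1638 CPM in regular culture at 7 h, a log2 fold change of -0.34 (limma adjusted p = 1.61e-09). EIF4G3 had 82.9 and 88.5 CPM in treated cells against 108 and 109.9 CPM in regular culture, a log2 fold change of -0.35 (limma adjusted p = 7.2e-08). In the 3 genes the treated libraries were below the regular libraries at 7 h.

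The helicase gene EIF4A2 had 199 and 204 CPM in treated cells and 200 and 211 CPM in regular culture at 7 h, which overlapped (log2 difference -0.03; SE 0.04; limma adjusted p = 0.428). At 1 h the levels were 196 and 190.0 CPM in treated cells against 152 and 147 CPM in regular culture, a log2 fold change of 0.37 (limma adjusted p = 6.96e-08). EIF4A3, the helicase of the exon junction complex, had 190 and 184 CPM in treated cells against 190 and 187 CPM in regular culture at 7 h (log2 difference -0.01; limma adjusted p = 0.726). At 1 h its 162 and 161 CPM in treated cells were below the 188 and 189 CPM of regular culture (log2 fold change -0.22; limma adjusted p = 1.66e-05). The pair therefore differed at 1 h in opposite directions, and at 7 h both were called lower under quantile normalization and on the listed total but not as deposited.

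EIF4B and EIF4H, which stimulate the helicase, were higher at 7 h, with EIF4H at 0.01 and not passing under quantile normalization and at -0.02 on the listed total. EIF4B had 478 and 475 CPM in treated cells against 356 and 367 CPM in regular culture (log2 fold change 0.40; limma adjusted p = 6.91e-10). EIF4H had 582 and 571 CPM in treated cells against 475 and 467 CPM in regular culture (log2 fold change 0.29; limma adjusted p = 2.22e-08). EIF6, which keeps the large ribosomal subunit from joining, had 234 and 230.5 CPM in treated cells against 222 and 215 CPM in regular culture, a log2 fold change of 0.09 (limma adjusted p = 0.0233) that was lost without a library and was called lower under quantile normalization (-0.09) and on the listed total (-0.23).

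**Figure D4:**
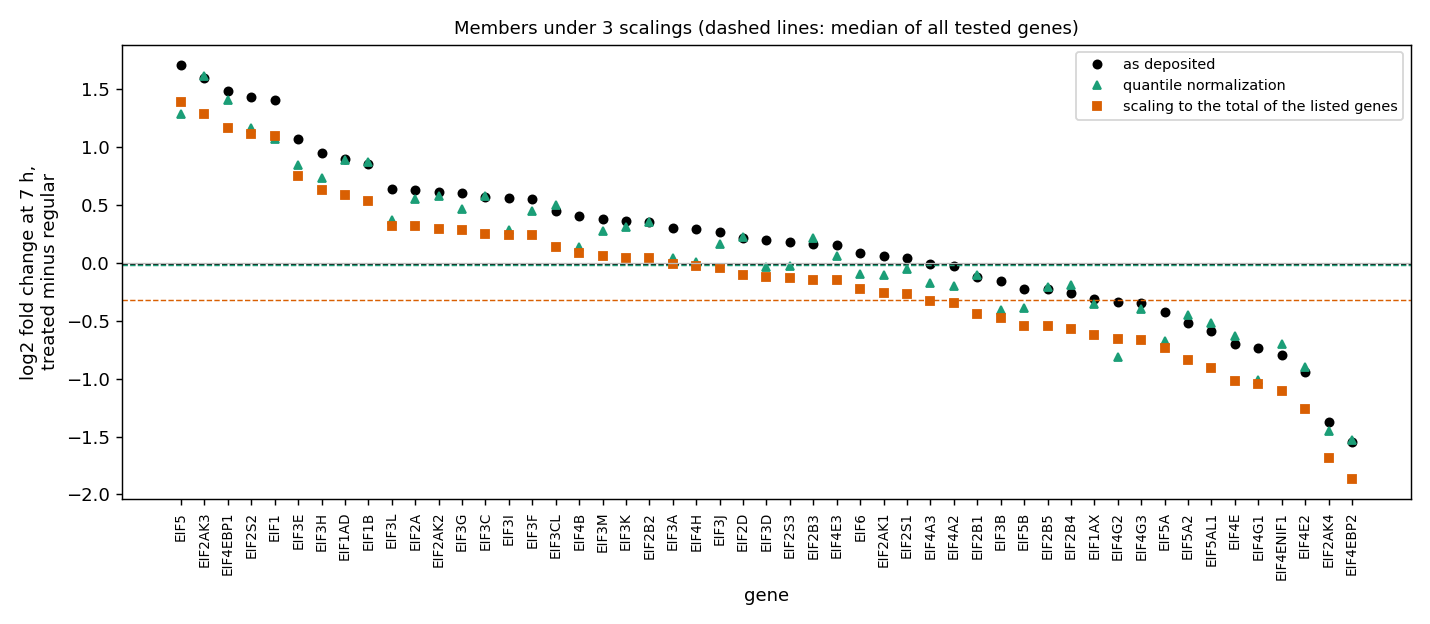
Log2 fold change at 7 h, treated minus regular culture, of each of the 51 genes (horizontal axis, ordered by the deposited scale) under 3 scalings (as deposited, quantile normalization and listed total, in that order here), with the median of all tested genes under each as a dashed line (-0.01, -0.02 and -0.32). The genes at both ends, such as EIF5 (1.70, 1.28 and 1.39) and EIF4EBP2 (-1.55, -1.53 and -1.86), keep their direction, whereas some genes nearer 0, such as EIF3A (0.30, 0.04 and -0.01), change sign.

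The effect of treatment was then compared between times. The difference between the 7 h and the 1 h effect passed for 41 of the 51 genes, with 27 higher (52.9%) and 14 lower (27.5%) at 7 h than at 1 h, against 36.7% and 37% of all genes. Their median difference was 0.21 log2 units. On the listed total the counts were 14 higher and 27 lower, where the median of all genes was at -0.38, and of all genes passing 24.9% were higher in place of 49.8%. The largest differences were 1.88 for EIF2AK3, 1.5 for EIF1, 1.41 for EIF5 and 1.33 for EIF4EBP1, and -1.22 for EIF2AK4 and -1.21 for EIF4EBP2. This difference uses the same libraries as each single comparison and is no separate evidence for them.

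The regular culture itself changed between 7 h and 1 h. In it, 28 members were higher at 7 h and 7 were lower, against 30.7% and 30.8% of all genes, and none reached a 2-fold change past the threshold, which 1.55% of all genes did upward and 4.7% downward. The lower ones were EIF2AK3 (-0.72), EIF1 (-0.51), EIF1B (-0.21), EIF4EBP1 (-0.17), EIF4EBP2 (-0.15), EIF5 (-0.14) and EIF4G3 (-0.14). Among the higher ones EIF4A2 (0.46), EIF4E (0.45), EIF4ENIF1 (0.41) and EIF5A (0.40) gained most. EIF3C differed by 1.03 but did not pass (limma adjusted p = 0.051).

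In treated cells, 35 members were higher at 7 h than at 1 h and 8 were lower, against 36.9% and 40.7% of all genes, with a median of 0.38 beside -0.03 for all genes. On the listed total the counts were 24 and 21, and over all genes that passed the higher share was 20.8% in place of 47.5%. EIF4E was one of the 8 that did not pass, with a log2 difference of -0.06 (limma adjusted p = 0.348), whereas in regular culture it was higher at 7 h than at 1 h by 0.45 (limma adjusted p = 5.79e-07). EIF5 (1.27), EIF3E (1.19), EIF2S2 (1.17), EIF4EBP1 (1.16) and EIF2AK3 (1.16) were higher at 7 h than at 1 h in treated cells. EIF3C was also called higher (1.76), with the unequal pair of 108 and 24.5 CPM at 7 h and 15 and 15.3 CPM at 1 h. The share of listed reads taken by the 51 genes was 1.05% in both treated libraries at 7 h, against 0.98% and 0.989% in the treated libraries at 1 h.

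Genes that work beside the initiation factors were counted in 5 lists of 48 genes, of which 47 were tested. At 7 h, 22 were higher and 21 lower (46.8% and 44.7%, against 40.5% and 41.1% of all genes), and at 1 h 9 were higher and 9 lower (19.1% each, against 17.7% and 20.7%). These shares lay near those of all genes. At least 2-fold changes at 7 h were reached by 8 higher (17%) and 1 lower (2.13%), against 10.6% and 11.5% of all genes. Of 13 eIF2 phosphatase and kinase partners, 6 were higher and 7 lower at 7 h (46.2% and 53.8%). PPP1R15A (GADD34), which brings a phosphatase to eIF2, had 1870 and 1836 CPM in treated cells at 7 h, against 140 and 133 CPM in regular culture. At 1 h it had 611 and 583 CPM in treated cells against 368 and 390 CPM in regular culture. The treated libraries were higher at both times, with log2 fold changes of 3.76 and 0.66. In regular culture PPP1R15A was lower at 7 h than at 1 h (-1.47), and in treated cells it was higher (1.63). PPP1R15B (CReP), its constitutive relative, rose by 1.01 at 7 h and fell by 0.21 at 1 h. Its level at 7 h against 1 h was lower in regular culture (-0.89) and higher in treated cells (0.33).

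ATF4 and DDIT3, whose products act when eIF2 is phosphorylated, rose in treated cells at both times. ATF4 had 816 and 798 CPM in treated cells at 7 h, against 327 and 326 CPM in regular culture. DDIT3 had 618 and 592 CPM in treated cells, against 30.3 and 29.5 CPM in regular culture. With time in regular culture both genes were lower at 7 h than at 1 h (ATF4 -0.36, DDIT3 -0.66). In treated cells both were higher at 7 h than at 1 h (0.50 and 0.58). No measure of eIF2 phosphorylation or of protein was analysed here.

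Of 13 initiation partners, 6 were higher and 4 lower at 7 h (46.2% and 30.8%, against 40.5% and 41.1% of all genes). Counts of the partner lists were taken on the deposited scale only. MKNK2, an eIF4E kinase, rose by 3.25 log2 units to 359 and 361 CPM in treated cells, against 37.2 and 38.7 CPM in regular culture. PDCD4, an eIF4A inhibitor, rose by 1.58, and PAIP2, which binds the poly(A)-binding protein, rose by 1.36. In regular culture PDCD4 and PAIP2 were lower at 7 h than at 1 h (-1.05 and -0.51). In treated cells these 2 genes were higher at 7 h than at 1 h (0.62 and 0.815). Of 7 genes of mTORC1 and the S6 kinases, 3 were higher and 4 lower (42.9% and 57.1%), with AKT1S1 (PRAS40), an inhibitor of the complex, at 1.49. Elongation genes counted 5 higher and 2 lower of 8 (62.5% and 25%), where EEF1A2 was at 1.38 and EEF2K, the kinase of elongation factor eEF2, at -1.42. At 1 h EEF2K was called higher in treated cells (0.27). Of 6 termination and recycling genes, 2 were higher and 4 lower (33.3% and 66.7%), and ETF1, the release factor, rose by 1.30. In regular culture MKNK2 (-0.33), AKT1S1 (-0.41) and ETF1 (-0.35) were also lower at 7 h than at 1 h. EEF2K went the other way there (0.65) and was lower at 7 h than at 1 h in treated cells (-1.04), while EEF1A2 did not pass in regular culture (0.15).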

How the data were processed

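Per the labels' protocols, RNA libraries were made with a kit that does not mark strand, so overlapping genes share reads that cannot be told apart. The submitters' processing notes name HISAT2, edgeR and the GRCh38 build, with no version or counting tool in the sources used here. The deposited values are log2 CPM, scaled between libraries by the authors, with a small prior of 0.0522 CPM that was removed for the printed levels; 100.00% of low values then lay within 0.1 read of a whole read. The library size used in the deposited CPM was 0.838 and 0.846 times the listed reads in treated cells at 7 h, 1.09 times in treated cells at 1 h and 1.04 to 1.05 times in regular culture.

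Tests used limma 3.58.1 (R 4.3.3) on the deposited log2 values, with an intensity trend, 1 mean per group and all 8 libraries (4 residual and 14.5 prior degrees of freedom). p-values were Benjamini-Hochberg adjusted over 13028 genes. The fit was tested on simulated data in which few genes changed, in 1 group, with the same dispersion for every gene. That setting held neither the many changes of these data nor a shift of scale between groups, so it does not test the fit under them. The planned count-based tools were not run, because the unit is log2; voom weights on recovered reads were added after the data were seen. Members and lists were chosen with earlier results of these data known. Genes were named by rule: all kinases and 4E-binding proteins, all 2-fold changes, the extremes of each complex, paralogs, and partners past 1 log2 unit. Picked individually were PPP1R15A, PPP1R15B, ATF4 and DDIT3, and among members EIF2S1, EIF4E, EIF4G1 and EIF5B.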

Additional observations from a re-analysis of the deposited data

Results flagged for a closer look

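The effect of treatment differed between 7 h and 1 h, by limma's test of the difference itself, in 41 of the 51 genes. The difference was positive in 52.9% of members and negative in 27.5%, against 36.7% and 37% of all genes. Such a difference was thus common over the whole table. Values are the 7 h effect minus the 1 h effect in log2 units. Among kinases and eIF2-related genes the difference was 1.88 for EIF2AK3, 0.46 for EIF2AK2, -1.22 for EIF2AK4, 1.12 for EIF2S2, 0.21 for EIF2S1, 0.19 for EIF2S3, 0.63 for EIF2A, 0.27 for EIF2B2, -0.15 for EIF2B1 and -0.34 for EIF2B4. In the eIF1 and eIF5 groups it was 1.5 for EIF1, 0.92 for EIF1B, 0.80 for EIF1AD, 0.22 for EIF1AX, 1.41 for EIF5, -0.16 for EIF5B, -0.30 for EIF5A and -0.52 for EIF5AL1. In eIF3 it was 0.99 for EIF3E, 0.83 for EIF3H, 0.67 for EIF3F, 0.62 for EIF3G, 0.59 for EIF3I, 0.56 for EIF3L, 0.46 for EIF3M, 0.42 for EIF3J, 0.36 for EIF3A, 0.31 for EIF3K and 0.17 for EIF3D. In the cap-binding genes it was 1.33 for EIF4EBP1, -1.21 for EIF4EBP2, -0.63 for EIF4ENIF1, -0.51 for EIF4E, -0.61 for EIF4E2, -0.52 for EIF4G1, -0.18 for EIF4G2, -0.27 for EIF4G3, -0.40 for EIF4A2, 0.21 for EIF4A3, 0.25 for EIF4B and 0.31 for EIF4H. EIF1, EIF2AK3, EIF3F and EIF3J passed as higher at 7 h and as lower at 1 h on the deposited scale.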

How the results depend on the processing

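No paired analysis was possible because the column headings carry no replicate numbers. No value changed sign or call without the filter, with 10 CPM as the minimum or with voom weights (226, 218 and 226 values of genes compared), and 1 gained a call with a pseudocount of 0.5 CPM. On the listed total, 16 members were higher and 26 lower at 7 h, 17 and 10 at 1 h, 14 and 27 for the difference between times, and 21 were lower at 7 h than at 1 h in treated cells; quantile normalization gave 18 higher and 11 lower at 1 h. Tested against a 1.5-fold change, 9 were higher and 5 lower at 7 h, 0 and 0 at 1 h, 9 and 2 for the difference, 0 and 0 in regular culture over time, and 14 and 2 in treated cells over time. Leaving out each library in turn gave 4 to 10 higher and 14 to 18 lower at 1 h, and 27 to 28 higher and 16 to 17 lower at 7 h; over 1808 such values of single genes it ended 66 calls and added 14.

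Sign changes are given for values past the threshold on at least 1 of the compared scales. Under quantile normalization the sign turned for EIF2AK1 (-0.11 at 7 h, -0.27 for the difference), EIF2S3 (-0.024 at 7 h, 0.10 at 1 h, -0.12 for the difference), EIF3D (-0.033 and -0.16), EIF6 (-0.094, 0.095 at 1 h and -0.19), and for the difference of EIF4A3 (-0.063), EIF4B (-0.092) and EIF4H (-0.053). On the listed total it turned at 7 h for EIF2AK1 (-0.26), EIF2B3 (-0.15), EIF2D (-0.10), EIF2S1 (-0.27), EIF2S3 (-0.13), EIF3A (-0.014), EIF3D (-0.12), EIF3J (-0.048), EIF4H (-0.024) and EIF6 (-0.23). For the difference it turned for EIF1AX (-0.17), EIF2AK1 (-0.38), EIF2B2 (-0.12), EIF2B3 (-0.26), EIF2D (-0.31), EIF2S1 (-0.18), EIF2S3 (-0.20), EIF3A (-0.025), EIF3D (-0.22), EIF3K (-0.071), EIF4A3 (-0.18), EIF4B (-0.14), EIF4H (-0.078) and EIF6 (-0.29). The scale itself moved in these settings.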

Other observations

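The 9 bases in capitals in the EIF5 promoter, TGACGTCGC, are the reverse complement of those in the EIF4EBP2 promoter, GCGACGTCA. They lay 125 to 117 bases before the start of EIF5 and 58 to 50 bases before that of EIF4EBP2. The same 9 letters, on either strand, were in 83 of 27305 promoters (0.304%) and in these 2 of the 42 member promoters. They were taken from the EIF5 match, so that promoter had to hold them and the shares cannot be compared. EIF5 had the largest rise and EIF4EBP2 the largest fall of the 51 genes at 7 h, so the letters stood beside opposite changes. This was noticed after the values were seen and was not tested.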
